A study of Mus musculus with 11 samples.

Results

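The 9 genes described here, Krt8, Krt18, Krt19, Epcam, Cdh1, Vil1, Cldn3, Cldn4 and Cldn7, encode keratins, junction and surface proteins and a microvillus protein of simple epithelium. They were taken by gene symbol from 11 RNA sequencing libraries of macrophages of the mouse colon and are 9 of the 23282 entries listed for each library. The labels describe the sorted cells as CD45+ CD11b+ Ly6G- Ly6C- MHCII+ CD64+, a macrophage gate with no epithelial marker in it. The labels give 1 treatment for all samples, drinking water with 2.5% dextran sodium sulphate (DSS), an agent that injures the colon lining and produces colitis, over 5 days, and do not say whether mice sampled at day 0 had received any. The mice were labelled wild type (WT) or Csf1r-EP4-/-, here called knockout (KO), where EP4 is the prostaglandin E2 receptor encoded by Ptger4. Day 0 of the DSS course had 2 WT and 3 KO libraries and day 39 had 3 of each. The column headers of the day 39 files read day 35, and the WT day 0 library titled number 2 has number 3 in its header. The promoter behind the deletion, the age of the mice and any pooling of animals are not given in the sources used here, so p-values measure the spread between libraries only.

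Simple epithelium, such as the single cell layer that lines the colon, fills its cells with filaments built from 1 type II keratin (Krt8) paired with a type I keratin (Krt18 or Krt19). Its cells hold together through E-cadherin (Cdh1) in adherens junctions and seal the space between them with claudins (Cldn3, Cldn4, Cldn7) in tight junctions. EpCAM (Epcam) is a membrane protein of nearly all simple epithelia and binds claudin-7, and villin (Vil1) bundles actin in the microvilli of the brush border. These genes are standard markers of epithelial cells and not of macrophages, although E-cadherin is also made by some mouse macrophages and dendritic cells.

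Library totals ran from 4003299 to 14207919 counts, and the 3 KO day 0 libraries were the deepest. Libraries agreed poorly, with Spearman correlations of 0.196 to 0.428 over all pairs, within and between groups, and 39.7% of all values of tested genes were 0. Ptger4, the gene behind the genotype labels, had 0 and 0 counts (WT) and 1350, 0 and 890 (KO) at day 0, and 1481, 152 and 7286 (WT) and 1, 8 and 4501 (KO) at day 39. Thus 3 KO libraries (KO day 0 replicate 1, KO day 0 replicate 3 and KO day 39 replicate 3) held 890 counts or more and both WT day 0 libraries held none, so at day 0 the gene did not follow the labels, and genotype below means the label. Of the sort markers, H2-Ab1 (MHC class II) was at 12803 counts or more and Csf1r at 1329 or more throughout, while Ptprc (CD45), Itgam (CD11b) and Fcgr1 (CD64) were each at 0 in at least 1 library. Levels are given as counts and as CPM, the count scaled to the TMM-adjusted size of its library.

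Among the keratins, Krt8 and Krt19 were present at both days and had their highest values at day 39, while Krt18 was seen only at day 39. Krt8, the type II partner, had 137 and 662 counts (WT) and 1261, 0 and 514 (KO) at day 0, and 1529, 1775 and 3260 (WT) and 303, 3148 and 6144 (KO) at day 39. The mean level was 90.2 CPM ± 93.0 (SD, n = 2, WT) and 78.8 CPM ± 109 (SD, n = 3, KO) at day 0, and 502 CPM ± 196 (SD, n = 3, WT) and 824 CPM ± 864 (SD, n = 3, KO) at day 39. Every WT day 39 library lay above both WT day 0 libraries, whereas KO day 39 replicate 1, at 78.4 CPM, lay below KO day 0 replicate 1, at 203 CPM. Krt8 overlaps a long noncoding gene on the opposite strand and has 1 pseudogene named after it in GENCODE, so its counts are uncertain.

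Krt19, a type I keratin found in colon crypts and surface cells, had 155 and 0 counts (WT) and 1991, 304 and 0 (KO) at day 0, and 3943, 1962 and 534 (WT) and 6225, 1400 and 3019 (KO) at day 39. In WT the level was 13.8 CPM ± 19.6 (SD, n = 2) at day 0 and 558 CPM ± 566 (SD, n = 3) at day 39, and in KO it was 120 CPM ± 175 (SD, n = 3) and 919 CPM ± 668 (SD, n = 3). All 6 day 39 libraries held at least 534 counts, and the only day 0 library above their lowest CPM was KO day 0 replicate 1, at 319.9 against 117 CPM in WT day 39 replicate 3.

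Krt18, the other type I keratin, had 0 counts in all 5 day 0 libraries. At day 39 it had 164, 0 and 2 counts in WT and 19, 1645 and 1 in KO. It reached 10 counts in 3 of 6 day 39 libraries, and 1 library, KO day 39 replicate 2, held most of its counts. Of the 10 libraries with at least 10 Krt8 counts, 3 also had at least 10 Krt18 counts, and 8 had at least 10 Krt19 counts. Counts of 0 in the day 0 libraries allow up to 3 counts each by counting error alone. Against that floor of 3 counts per library, the mean was at least 26.9-fold higher at day 39 in WT and at least 310.4-fold higher in KO. The WT bound rests on WT day 39 replicate 1 alone, since the other WT day 39 libraries had 0 and 2 counts, and the KO bound rests mostly on KO day 39 replicate 2.

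The promoters of Krt8 and Krt18 are printed because these partner genes lie close together on chromosome 15, with 2 other RefSeq genes between them, yet differed in the number of libraries that detected them. Both are RefSeq sequences of build GRCm38.p6, from 250 bases before the gene start to 50 after it, 5′ to 3′ on the gene's own strand (Krt8 chr15:102004293-102004592, minus strand; Krt18 chr15:102027966-102028265, plus strand). Capitals mark the E-box CAGGTG, searched on both strands and so also as CACCTG, a motif that Snail and Zeb repressors of epithelial genes bind. Each of the pair holds 1 such match, as do 20.2% of the 32851 promoters of this length at least once.
Krt8: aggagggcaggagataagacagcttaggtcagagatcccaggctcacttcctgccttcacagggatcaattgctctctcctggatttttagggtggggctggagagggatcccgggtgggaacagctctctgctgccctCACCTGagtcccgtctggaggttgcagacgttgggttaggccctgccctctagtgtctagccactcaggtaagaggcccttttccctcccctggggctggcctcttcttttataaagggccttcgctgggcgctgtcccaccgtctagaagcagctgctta
Krt18: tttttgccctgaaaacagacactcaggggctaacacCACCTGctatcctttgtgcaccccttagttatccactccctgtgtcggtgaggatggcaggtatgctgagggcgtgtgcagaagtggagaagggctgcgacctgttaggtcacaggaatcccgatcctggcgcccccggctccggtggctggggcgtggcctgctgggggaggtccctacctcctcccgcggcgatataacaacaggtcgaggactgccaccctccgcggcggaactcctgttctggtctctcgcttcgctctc

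**Figure D1:**
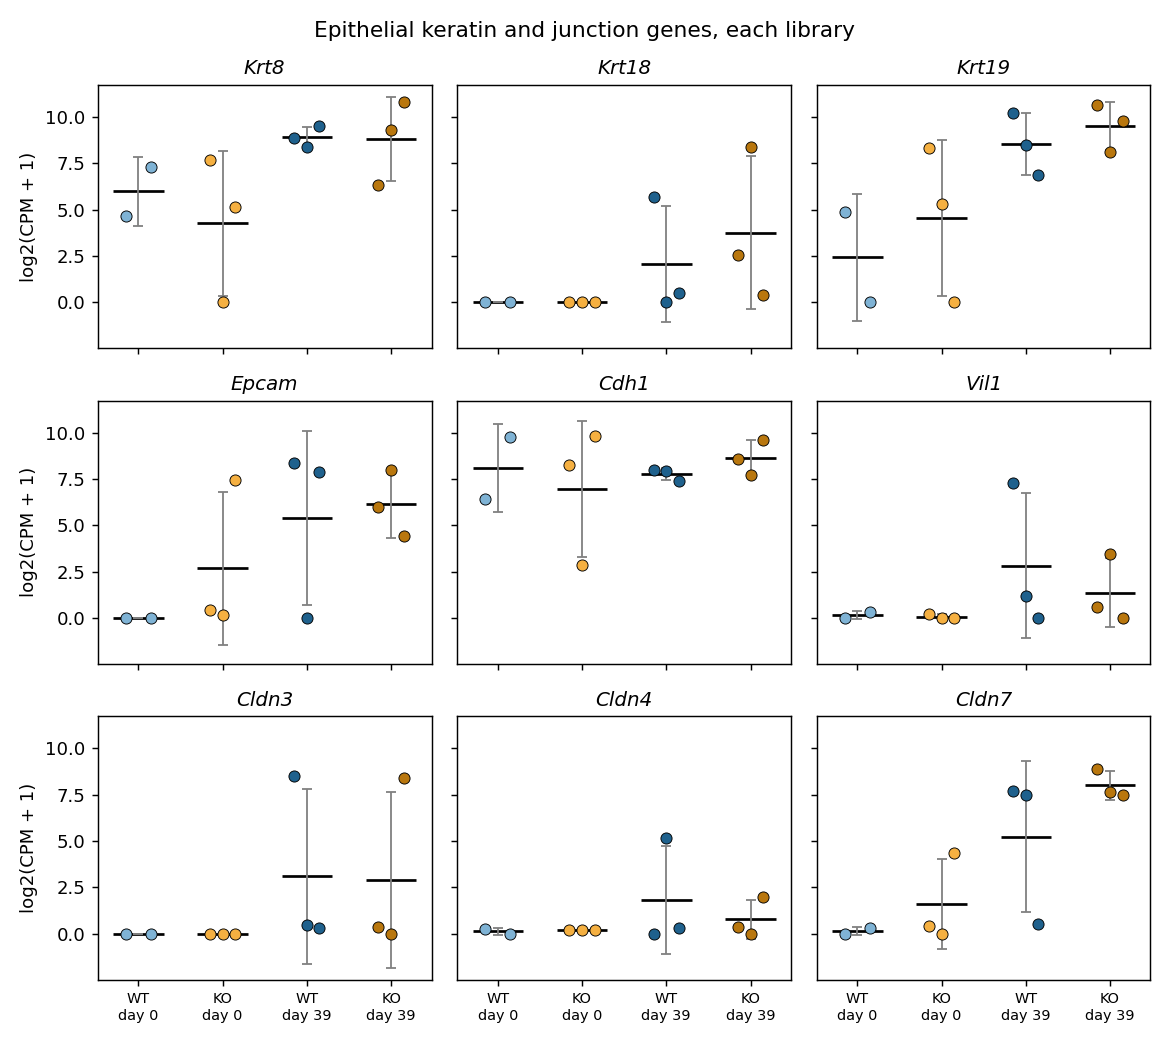
Level of each of the 9 genes, as log2(CPM + 1) on the vertical axis, in the 4 groups on the horizontal axis. Each point is 1 library, the black line is the mean of the logged values and the grey bar its SD. Krt18 and Cldn3 sit at 0 in all 5 day 0 libraries, and the day 39 values of Cdh1 lie within its day 0 range.

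Epcam and Cldn7, whose proteins bind each other in the basolateral membrane, were near 0 in most day 0 libraries. Epcam had 0 and 0 counts (WT) and 2, 1 and 2661 (KO) at day 0, and 1072, 0 and 1052 (WT) and 240, 1268 and 70 (KO) at day 39. In KO the level was 58.2 CPM ± 100.4 (SD, n = 3) at day 0 and 111 CPM ± 123 (SD, n = 3) at day 39, and in WT it was 185 CPM ± 167 (SD, n = 3) at day 39. The days overlapped, since KO day 0 replicate 3 had a higher Epcam level than 2 of the 3 KO day 39 libraries and WT day 39 replicate 2 had none. The WT day 39 mean was at least 298-fold above the floor of 3 counts in the WT day 0 libraries.

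Cldn7, a claudin of the lateral membrane and tight junction, had 0 and 1 counts (WT) and 2, 0 and 300 (KO) at day 0, and 677, 951 and 2 (WT) and 1848, 1003 and 621 (KO) at day 39. In KO the level was 6.65 CPM ± 11.2 (SD, n = 3) at day 0 and 285 CPM ± 167 (SD, n = 3) at day 39, with no overlap. In WT the day 39 level was 127 CPM ± 111 (SD, n = 3), and the lowest library there, with 2 counts, lay within counting error of the day 0 libraries. Epcam and Cldn7 reached 10 counts together in 5 libraries, and each did so without the other in 1.

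The promoters of Epcam and Cldn7 are shown because the proteins are partners and the genes, on different chromosomes, reached 10 counts together in 5 libraries. They are RefSeq sequences of GRCm38.p6 on the plus strand (Epcam chr17:87635729-87636028; Cldn7 chr11:69965171-69965470, the second of 2 starts), and capitals mark CAGGTG or CACCTG and also ACCGGT, a palindrome at the core of the motif of Grainyhead-like factors. Epcam holds 2 E-boxes and 2 ACCGGT matches, and this Cldn7 promoter holds 2 E-boxes. ACCGGT occurs in 2.33% of all promoters of this length. Among the 8 promoters found for 7 of the 9 genes, 7 hold an E-box match and 1, that of Epcam, holds ACCGGT. The first Cldn7 start holds neither, and promoters of Cdh1 and Krt19 were not analysed here.
Epcam: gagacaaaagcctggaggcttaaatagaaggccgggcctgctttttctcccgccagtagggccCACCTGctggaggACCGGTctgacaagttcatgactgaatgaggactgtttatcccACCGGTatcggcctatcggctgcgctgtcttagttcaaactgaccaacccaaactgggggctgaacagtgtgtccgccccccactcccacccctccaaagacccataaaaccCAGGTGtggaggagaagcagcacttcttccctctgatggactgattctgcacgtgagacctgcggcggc
Cldn7: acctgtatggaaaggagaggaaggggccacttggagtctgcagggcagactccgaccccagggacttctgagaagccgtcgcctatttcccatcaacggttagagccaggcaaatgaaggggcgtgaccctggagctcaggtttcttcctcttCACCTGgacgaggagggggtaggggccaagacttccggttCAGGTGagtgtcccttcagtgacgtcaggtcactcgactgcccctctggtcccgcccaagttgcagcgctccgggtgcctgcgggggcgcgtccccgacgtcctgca

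Cldn3 and Cldn4 encode claudins that also serve as receptors of a clostridial enterotoxin, and they are neighbours on chromosome 5 with no RefSeq gene between them. Cldn3 had 0 counts in all 5 day 0 libraries, and 1209, 2 and 1 counts (WT) and 1, 0 and 1160 (KO) at day 39. It was thus abundant in 1 library of each genotype label at day 39 and at 2 counts or fewer in the other 9. Because of those 2 libraries, the day 39 mean was at least 197-fold above the day 0 floor in WT and at least 314-fold in KO. Cldn3 overlaps the antisense gene Wbscr25 and Vil1 overlaps Usp37 on the opposite strand, and since the strand setting of the counting is not given in the sources used here, the counts of both are uncertain.

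Cldn4 had 1 and 0 counts (WT) and 1, 1 and 2 (KO) at day 0, and 0, 190 and 1 (WT) and 1, 0 and 10 (KO) at day 39. Its 190 counts came from WT day 39 replicate 2, a library with 2 Cldn3 counts, and WT day 39 replicate 1, with 1209 Cldn3 counts, had no Cldn4. Vil1, the brush border gene, had 0 and 1 counts (WT) and 1, 0 and 0 (KO) at day 0, and 504, 7 and 0 (WT) and 2, 51 and 0 (KO) at day 39. Both genes were at 2 counts or fewer throughout day 0 and reached 10 counts in 2 of 6 day 39 libraries.

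Cdh1 was the only one of the 9 genes with at least 10 counts in all 11 libraries. It had 472 and 3645 counts (WT) and 1865, 48 and 13550 (KO) at day 0, and 834, 1340 and 769 (WT) and 1454, 1044 and 2702 (KO) at day 39. The mean level was 472 CPM ± 548 (SD, n = 2, WT) and 398 CPM ± 448 (SD, n = 3, KO) at day 0, and 223 CPM ± 47.1 (SD, n = 3, WT) and 454 CPM ± 294 (SD, n = 3, KO) at day 39. The day 0 libraries contained both the lowest level, 6.17 CPM, and the highest, 887 CPM, so the day 39 libraries all lay within the day 0 range.

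Detection summarises this pattern. At day 0 a library held between 2 and 4 of the 9 genes at 10 counts or more, and at day 39 between 4 and 8. Over all 9 genes, 31.1% of the day 0 values and 68.5% of the day 39 values reached 10 counts, while over all tested genes the shares were 39.2% and 42.8%. Krt18, Cldn3, Cldn4, Vil1, Epcam and Cldn7 reached 10 counts in at most 1 day 0 library and were among the tested genes through day 39. Their low day 0 share is thus partly built in. The 9 genes were also chosen with earlier results of these data known, so nothing is read from the gap to all tested genes. The genes that each library detected differed: KO day 0 replicate 3 had Epcam, Cdh1, Krt8 and Cldn7 but no Krt19, KO day 0 replicate 2 had Krt19 and Cdh1 but no Krt8, and WT day 39 replicate 1 had every gene except Cldn4.

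**Figure D2:**
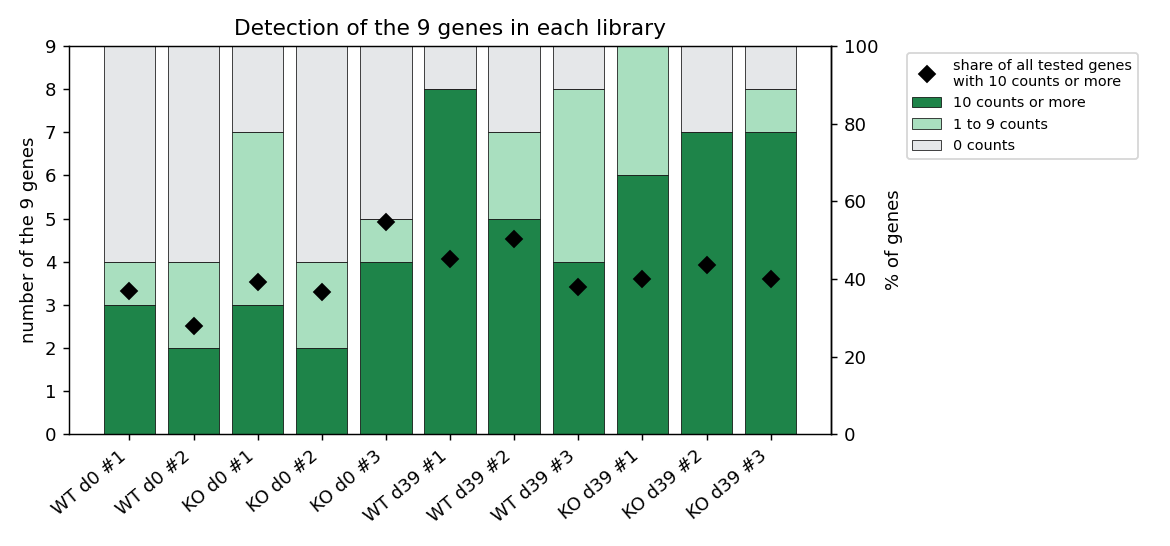
Number of the 9 genes (left axis) with 10 or more counts, 1 to 9 counts and 0 counts in each library, which is named by genotype label, day (d) and replicate (#). Diamonds show the share of all 6987 tested genes with 10 or more counts on the right axis, in percent. The green bars rise above the diamonds in all 6 day 39 libraries and stay below them in all 5 day 0 libraries. This is partly built in, since several of the 9 genes passed the filter on low counts through day 39.

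The make-up of the summed level also differed. Cdh1 was the leading gene in 3 of 5 day 0 libraries and made up 84.6% of the summed counts in WT day 0 replicate 2 and 79.6% in KO day 0 replicate 3. Krt19 led in 3 and Krt8 in the other 3 of the 6 day 39 libraries. The sum of all 9 genes ran from 45.5 to 1114 CPM at day 0 and from 1145 to 3955 CPM at day 39. That narrow gap was not kept under other scalings: with library size alone the day 0 maximum was 1273 CPM and the day 39 minimum 1160 CPM, and with upper quartile scaling they were 4505 and 986 CPM. Without Cdh1, a subset chosen after the values were seen and not tested, the sum was 39.3 to 524 CPM at day 0 and 899 to 3177 CPM at day 39, and it did not overlap under any of the 4 scalings. In bulk libraries, fewer cells of a type and less RNA per cell cannot be told apart. Whether epithelial cells or their RNA passed the CD45+ CD11b+ CD64+ sort was not tested.

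**Figure D3:**
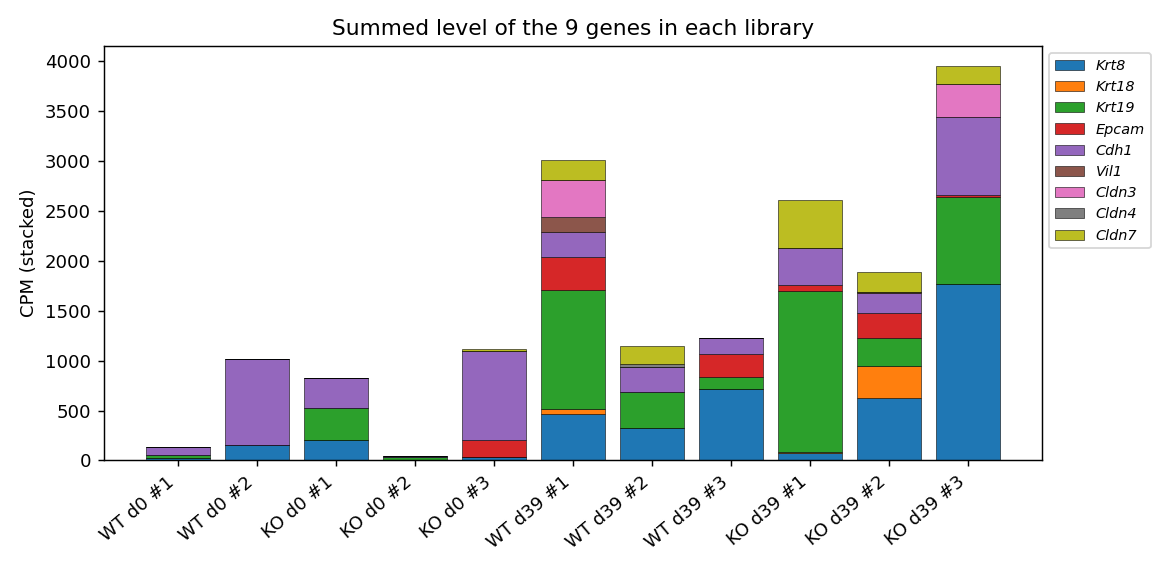
Summed level of the 9 genes in CPM (vertical axis, linear, from 0) in each library, stacked by gene. Cdh1 fills most of the day 0 bars of WT replicate 2 and KO replicate 3, and either Krt8 or Krt19 fills the largest part of each day 39 bar.

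The time contrasts compare macrophages late in the DSS course with those at day 0. With edgeR's quasi-likelihood test fitted to 6987 genes, none of the 9 genes passed an adjusted p of 0.05 in the average of both genotype labels, in which 0.301% of tested genes were called. All 9 passed the filter on low counts, but Krt18, Cldn3, Cldn4 and Vil1, at 2 counts or fewer throughout day 0, passed it through day 39. Epcam and Cldn7 reached 10 counts in only 1 day 0 library and so also passed through day 39. No tally of directions is therefore given. An unadjusted p under 0.05 in edgeR was found for Krt19 and, among the genes that passed through day 39, for Cldn7, Cldn3 and Krt18. Of all tested genes, 19.2% had one, and nothing is read from the members' count. The median log2 fold change of all tested genes was 0.76, and it was 0.55 with library size alone, 0.59 with DESeq2 size factors and 0.18 with upper quartile scaling.

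The log2 fold changes (± SE) of single genes ranged from that of Cdh1, -0.45 ± 1.49 (adjusted p = 0.978 in edgeR), to those of genes at 0 in every day 0 library. The sign for Cdh1 rests on single libraries, since it was 0.14 without KO day 0 replicate 3 and 0.73 without WT day 0 replicate 2. Krt19 was at 4.14 ± 1.67 (SE, edgeR adjusted p = 0.192), Krt8 at 2.93 ± 1.63 (SE, edgeR adjusted p = 0.302) and Cldn7 at 7.64 ± 3.73 (SE, edgeR adjusted p = 0.244). With 1 library left out, Krt8 ran from 2.32 (without KO day 39 replicate 3) to 4.05 (without KO day 0 replicate 1), and Cldn7 reached 10.14 (without KO day 0 replicate 3). Krt19 ran from 3.42 (without WT day 39 replicate 1) to 8.72 (without WT day 0 replicate 1). Upper quartile scaling with all libraries gave 1.60 for Krt8. For Epcam, Vil1 and Cldn4 the edgeR adjusted p was 0.265, 0.314 and 0.410, and for Krt18 and Cldn3 it was 0.192 and 0.185. The biological coefficient of variation of the fit was 2.48, and on counts simulated at that spread the test recovered 0 of 200 genes changed 16-fold.

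**Figure D4:**
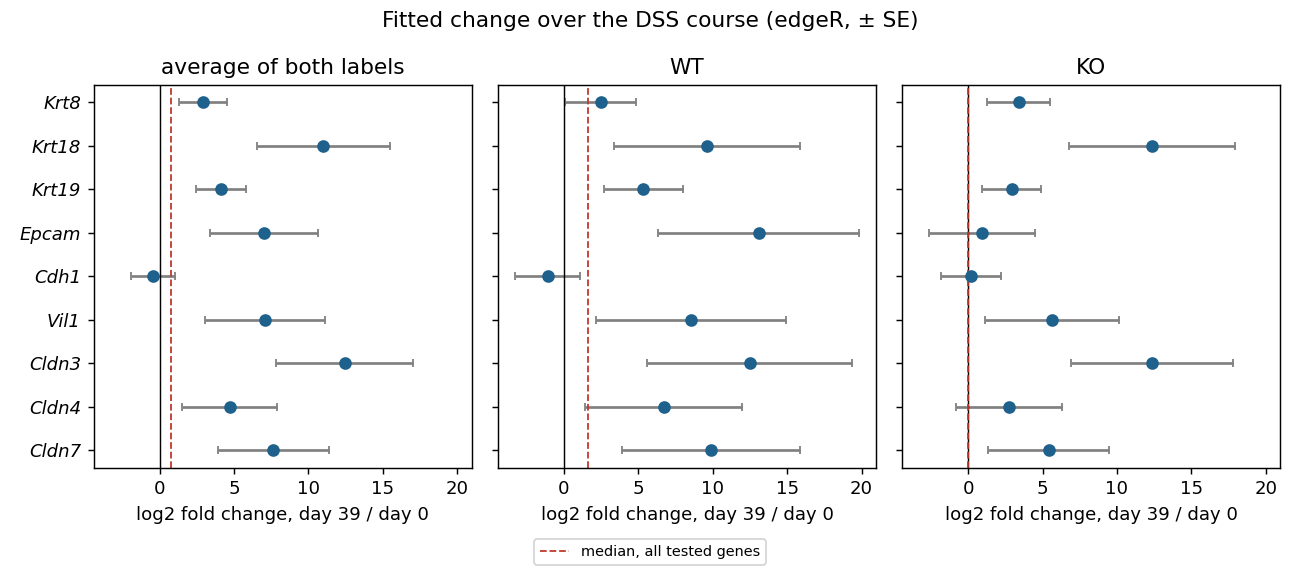
Fitted log2 fold change of day 39 over day 0 from edgeR (horizontal axis) with its SE for the 9 genes, for the average of both genotype labels, WT and KO. The red dashed line is the median of all tested genes, and values for Krt18 and Cldn3, and for Epcam in WT, depend on the prior count because a group is at 0; Cdh1 lies nearest to 0.

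Other tests called some of the genes. DESeq2 called Cldn7 (adjusted p = 0.000789) and Epcam (adjusted p = 0.0181) in the average contrast, where it called 17.4% of tested genes, and in every contrast it gave no p for Krt18, Cldn3, Cldn4 and Vil1, so it tested 5 of the 9. With limma-voom, Cldn7 (adjusted p = 0.0217) and Krt19 (adjusted p = 0.0442) passed, beside 2.89% of tested genes. An exact permutation test of the mean log2(CPM + 1) of 6 day 39 against 5 day 0 libraries, whose smallest possible p is 0.00216, gave p = 0.00649 for Krt19, 0.0130 for Krt8 and 0.0152 for Cldn7 (two-sided). Adjusted over all tested genes these exact permutation values were 0.504, 0.590 and 0.590, and 0% of tested genes passed.

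No gene of the 9 had all day 39 libraries above all day 0 libraries, a separation that 1.6% of tested genes showed upward. Leaving out 1 library gave 1 such gene in 6 cases, where the share of tested genes ran from 1.97% to 2.89%. These were Krt19 without KO day 0 replicate 1, Cldn7 without KO day 0 replicate 3 and also without WT day 39 replicate 3, Krt8 without KO day 39 replicate 1, Cldn3 without KO day 39 replicate 2 and Krt18 without WT day 39 replicate 2. For Cldn3 and Krt18 the separation was 1 count against 0 and so within counting error. The same holds for Cldn7 without KO day 0 replicate 3, at 2 counts (0.438 CPM) against 2 (0.321 CPM). Without the 3 KO libraries with 890 or more Ptger4 counts, Cldn7 and Krt19 did not overlap, beside 3.79% of tested genes. There Cldn7 separated by 2 counts in WT day 39 replicate 3 against 1 in WT day 0 replicate 2, again within counting error.

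Within WT, 0 of the 9 genes passed in edgeR (0.0143% of tested genes did), and 1, Krt19, had an unadjusted p under 0.05, as did 6.68% of tested genes. The log2 fold change of Krt19 was 5.33 ± 2.65 (SE, edgeR adjusted p = 0.414) and that of Krt8 was 2.47 ± 2.39 (SE, edgeR adjusted p = 0.601). The Krt19 value was 14.66 without WT day 0 replicate 1, the only WT day 0 library with Krt19 counts, and 3.98 without WT day 39 replicate 1. The Krt8 value was 1.51 without WT day 0 replicate 1 and 4.44 without WT day 0 replicate 2, and 0.20 with upper quartile scaling. The days did not overlap in WT for Krt8, Krt19, Cldn7 and Cldn3, against 12.7% of tested genes, although for Cldn3 and Cldn7 this rests on day 39 libraries with 1 or 2 counts. With upper quartile scaling the count was 2, Cldn3 and Krt19, beside 9.8% of tested genes. DESeq2 called Cldn7 (adjusted p = 0.00744) and Epcam (adjusted p = 0.00391) in WT, where it called 16.9% of tested genes, and limma-voom called none of the 9 (2.42% of tested genes).

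Within KO, 0 of the 9 passed in edgeR (0.157% of tested genes did) and 2, Krt18 and Cldn3, had an unadjusted p under 0.05. Both were at 0 in every KO day 0 library and passed the filter through day 39, so nothing is read from that count beside the 18.2% of tested genes. The log2 fold change of Cldn7 was 5.41 ± 4.07 (SE, edgeR adjusted p = 0.458), that of Krt8 was 3.39 ± 2.12 (SE, edgeR adjusted p = 0.346) and that of Epcam was 0.93 ± 3.53 (SE, edgeR adjusted p = 0.987). The Epcam value was 8.87 without KO day 0 replicate 3 and -0.51 without KO day 39 replicate 2. That of Cldn7 was 10.65 without KO day 0 replicate 3, and that of Krt8 was 5.62 without KO day 0 replicate 1 and 2.15 without KO day 39 replicate 3. The days did not overlap in KO for Cldn7 and Krt18, against 8.07% of tested genes, and Krt18 was at 1 count in the lowest day 39 library. The number was 4 without KO day 0 replicate 1 and 5 without KO day 39 replicate 2, beside 13.3% and 14.8% of tested genes. The 5 include Cldn3, Cldn4 and Krt18, whose lowest day 39 library held 1 count, within counting error of day 0. It was 7 without the 3 KO libraries with 890 or more Ptger4 counts, which leaves 1 KO day 0 library and where 24.6% of tested genes separated. In KO, limma-voom called none of the 9 (2.96% of tested genes) and DESeq2 none of the 5 with a p (16.4%).

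The genotype contrasts ask how the knockout label bears on these RNAs at each day, and none of the 9 genes passed in edgeR, while DESeq2 called Epcam at day 0. At day 0, edgeR called 0.0143% of tested genes, and 0 of the 9 had an unadjusted p under 0.05. Epcam was the only one whose groups did not overlap, with 0 and 0 counts in WT and 2, 1 and 2661 in KO (edgeR adjusted p = 0.381); 6.73% of tested genes separated upward and 5.25% downward. The DESeq2 call of Epcam (adjusted p = 0.0132) was among 17.9% of tested genes, and limma-voom called none of the 9 among 2.55%. The Epcam difference rests on KO day 0 replicate 3, the deepest library and one of the KO libraries with Ptger4 counts.

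At day 39, edgeR called 0.0286% of tested genes, and again 0 of the 9 had an unadjusted p under 0.05. Krt8 was at a log2 difference of KO over WT of 0.72 ± 1.95 (SE), Krt19 at 0.72 ± 1.85 (SE) and Cldn7 at 1.17 ± 3.42 (SE), each with an edgeR adjusted p of 1. All 9 genes overlapped between the labels, where 3.41% of tested genes separated upward and 3.99% downward. DESeq2 called 0 of the 5 genes with a p, beside 8.37% of tested genes, and limma-voom 0 of the 9, beside 0.487%. The interaction, which asks whether the change over time differed between the labels, called 0 of the 9 and 0% of tested genes in edgeR, with 0 of the 9 at an unadjusted p under 0.05, while DESeq2 called 0 of the 5 with a p (13.4% of tested genes) and limma-voom 0 of the 9 (0.272%). The smallest edgeR adjusted p among the 9 was 0.388, for Epcam.

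Other genes of the same structures were read from fixed lists. Of 25 junction and adhesion genes, 15 were tested and 9 had a positive log2 fold change in the average time contrast, with a median of 1.29 and 5 at an unadjusted p under 0.05, beside 59.8% positive and a median of 0.76 over all tested genes, of which 19.2% had such a p. Genes at 0 at day 0 could enter these counts only with a positive sign, so nothing is read from them. Of 20 further keratin and brush border genes, 14 were tested, 0 passed and 10 were positive, with a median of 6.84 and 9 at an unadjusted p under 0.05. Of 17 epithelial regulators, 11 were tested, 0 passed and 9 were positive, with a median of 4.90 and 6 at an unadjusted p under 0.05. Myo1a, the brush border myosin that binds the same actin core as villin, was named after its values were seen. It had 0 counts in every day 0 library and between 435 and 2618 in every day 39 library (edgeR adjusted p = 0.0973). Myo1a thus passed the filter on low counts through day 39. Others of its list went the other way, among them Krt23 (log2 fold change -6.24 ± 2.93 SE, edgeR adjusted p = 0.227). Ezr had between 1235 and 6542 counts at day 0 and between 0 and 1668 at day 39.

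Levels of 2 keratins of stratified epithelium are given beside those of simple epithelium. Krt5 and Krt14, the partner keratins of basal cells in skin and other layered epithelia, were named after their values were seen. Krt5 had 0 and 801 counts (WT) and 757, 15711 and 35505 (KO) at day 0, and 3163, 546 and 3387 (WT) and 519, 1051 and 847 (KO) at day 39. Krt14 had 1710 and 6591 counts (WT) and 2190, 13462 and 17221 (KO) at day 0, and 5, 2211 and 2 (WT) and 487, 964 and 4 (KO) at day 39. Neither passed over time (log2 fold change -0.13 ± 1.11 SE and -3.05 ± 1.30 SE, edgeR adjusted p = 1.0 and 0.193). The sum of Krt8, Krt18 and Krt19 exceeded that of Krt5 and Krt14 in 6 of 6 day 39 libraries and 1 of 5 day 0 libraries. This comparison between genes is only of 3′ counts. It rests on a pair named after its values were seen, so nothing is read from it. Krt4 and Krt13, from the list of keratin and brush border genes, had 0 counts except in WT day 39 replicate 2 (121 and 306).

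**Figure D5:**
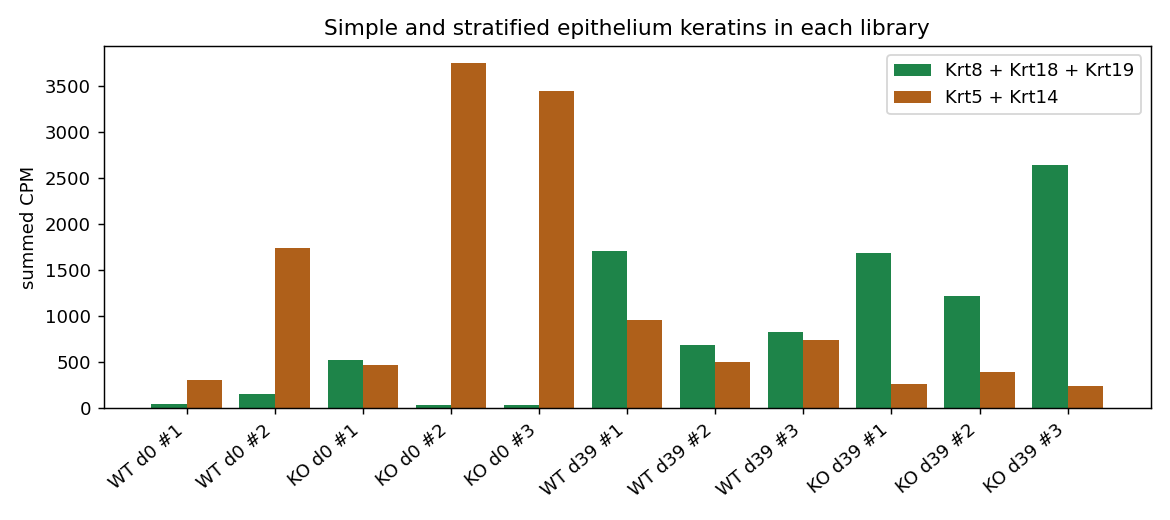
Summed CPM (vertical axis, linear, from 0) of the simple epithelium keratins Krt8, Krt18 and Krt19 (green) and of the stratified epithelium keratins Krt5 and Krt14 (brown) in each library. Krt5 and Krt14 reach 3751 CPM in KO day 0 replicate 2, where the simple keratins are at 39.1 CPM, and all 6 day 39 libraries have more of the simple keratins. The brown pair was named after its values were seen.

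Markers of other cell types were summed in the same libraries. The list of 10 colonocyte genes ran from 28.4 to 1524 CPM at day 0 and from 970 to 7152 CPM at day 39, with 1 to 4 and 5 to 8 of its genes at 10 counts or more. The 12 goblet and secretory genes ran from 363 to 954 CPM and from 303 to 5011 CPM, with Trpm5 at 0 everywhere, and of the 7 stem and crypt genes Olfm4 and Ascl2 were at 0 everywhere. The 16 macrophage and gate genes ran from 15565 to 71377 CPM at day 0 and from 26692 to 45298 CPM at day 39, with Mertk at 0 everywhere. Stromal and endothelial genes ran from 3056 to 20998 CPM and from 5864 to 10985 CPM. Genes that the gate excludes reached at most 302 and 779 CPM, and B, plasma and T cell genes at most 626 and 235 CPM, with Cd79a, Ms4a1, Cd3e and Cd8a at 0 everywhere. The part of these cell types in the levels of the 9 genes was not tested.

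The tested genes most like the mean profile of the 9 over the 11 libraries, by Pearson correlation of log2(CPM + 1), were Ptprd (0.92), Sdf2l1 (0.92), Mgp (0.91), Plac9a (0.90), Plac9b (0.90) and Ppp1r1b (0.89), beside a median of 0.07 over 6978 genes. Ptprd had 0 counts in every day 0 library and between 17 and 435 in every day 39 library. These coefficients describe libraries that share their depth and day, and Plac9a and Plac9b are near-identical copies whose counts are uncertain.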

How the data were processed

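RNA was extracted with Trizol and made into Lexogen QuantSeq libraries, which read the 3′ end of transcripts, per the labels' protocols. The submitters' processing notes name Bowtie2, edgeR and build hg19, a human build, with no role or version, although the samples are mouse, so no genome coordinates are taken from the files. What the authors deposited are counts, whole numbers listed by gene symbol.

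Counts were filtered with filterByExpr (6987 tested, 16295 not), scaled by TMM and fitted with edgeR 4.0.16 in R 4.3.3 (quasi-likelihood, 1 coefficient per group, 11 libraries). P-values are two-sided and Benjamini-Hochberg adjusted over all tested genes at 0.05. SE is the log2 fold change over the square root of F. DESeq2 1.42.0 and limma 3.58.1 were alternatives, with other scalings and filters, left-out libraries and the replicate number as a block. Permutation tests used log2(CPM + 1) and all 462 splits. Floors of 3 counts cover counting error only. The procedure was tested on simulated data: with a dispersion of 0.1, 200 of 200 genes given a 16-fold change over time were called by edgeR, with 11 other calls.

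The members and lists were chosen with earlier results of these data known. All 9 genes are named whatever their values, with Ptger4, the sort markers, called genes of the lists and the 6 genes most like the mean profile. Some results for genes of the lists are not reported here.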

Additional observations from a re-analysis of the deposited data

How the results depend on the processing

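With edgeR, 0 of the 9 genes were called in each of the 6 contrasts under every other scaling and filter tried, the replicate block, and each of the 11 fits without 1 library (range 0 to 0). DESeq2, which gave a p for 5 of the 9, called 2 over time on average, 2 in WT and 1 between labels at day 0, and limma-voom called 2 on average. The number with no overlap of days moved from 0 to between 0 and 1 when 1 library was left out, and to 2 without the 3 KO libraries with 890 or more Ptger4 counts, an alternative chosen after seeing the data. In WT it was 4, with 3 to 6 when 1 library was left out (the 6 beside 24% of tested genes) and 2 with upper quartile scaling (9.8%), and in KO it was 2, with 2 to 5 (the 5 beside 14.8%) and, without the 3 libraries, 7 (24.6%). Low-count filtering left no fitted value for Vil1 without KO day 39 replicate 2 or WT day 39 replicate 1, for Cldn3 without KO day 39 replicate 3 or WT day 39 replicate 1, and for Cldn4 without KO day 39 replicate 3 or WT day 39 replicate 2. In a fit with 2 groups by day, also chosen after seeing the data, 5 of the 9 genes passed the filter, 0 were called and Epcam was at 1.96 in place of 7.01. None of the 9 genes passed the permutation test at a pseudocount of 0.1, 1 or 10.

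Of the fitted log2 fold changes over time under all alternatives, 496 kept their direction and side of the threshold, 6 became calls and 13 reversed, none of which was a call, and 12 from DESeq2 had no p. Cdh1 on average went from -0.45 to 0.52 with limma-voom, to 2.15 without the 3 libraries, and to between -1.08 and 0.73 when 1 library was left out. Cdh1 in KO went from 0.19 to -0.23 with library size only, to -0.13 with no filter, and to between -0.46 and 1.56 without 1 library; in WT the range without 1 library was -2.15 to 1.46. Epcam in KO ran from -0.51 to 8.87 without 1 library, and Cldn4 in KO was -0.059 without the 3 libraries. Without 1 library, Krt19 ran from 3.42 to 8.72 on average and 3.98 to 14.66 in WT, Cldn7 in KO from 4.74 to 10.65 and Krt18 in WT from 3.63 to 10.23. The causes were not tested.

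With the replicate number as a block, 0 of the 9 genes were called in each contrast, and over all tested genes the calls went from 21 to 7 over time on average. Libraries with the same title number did not deviate together (15 pairs, correlations -0.014 to 0.070). With groups of 2 or 3 and Spearman correlations of 0.196 to 0.428 between libraries, this check cannot exclude a pairing. It also took WT day 0 replicate 2 by its title number, although its header has number 3. Depth limits the genes at 0 at day 0, where fewer than 3 counts per library cannot be told from none.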

Other observations

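Dsp (desmoplakin, which ties keratins to desmosomes), a gene of the junction list named after its values were seen, had its highest count at day 0. It had 3 and 1267 counts (WT) and 1202, 14164 and 60501 (KO) at day 0, and 35, 8023 and 6003 (WT) and 429, 2167 and 15 (KO) at day 39 (log2 fold change over time -0.41 ± 0.94 SE, edgeR adjusted p = 0.917). The regulator Klf5, a factor of proliferating crypt epithelium, had at least 1133 counts in each day 39 library and between 0 and 9264 at day 0 (edgeR adjusted p = 0.235).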
